A study of Mus musculus with 6 samples.

Results

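The genes that encode the DNA-binding TCF/LEF factors, beta-catenin and the TLE corepressors were followed by RNA sequencing in the small intestinal epithelium of E13.5 mouse embryos. They were found by their symbols in the deposited count tables, where all 10 occur among 23366 genes. The study compared wild type embryos with embryos of the genotype *Shh-cre-egfp*:*Tcf7l1* lox/lox, called mutant here, to ask what the loss of *Tcf7l1* changes, with 3 libraries in each group. Each library was made from 500 living cells sorted for EpCAM, a surface protein of epithelial cells. In the mutants a Cre recombinase fused to EGFP is produced from the *Shh* locus, which is active in the gut epithelium from before this stage, and removes exon 6 of *Tcf7l1*, which is flanked by loxP sites. The control group is labelled only as wild type, and no library has Cre with *Tcf7l1* intact. The labels do not say which embryos or litters the libraries came from, so that p-values measure the spread between these libraries.

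WNT signals act on transcription through the TCF/LEF proteins, which bind the same short DNA element through a conserved HMG box. Without a signal, beta-catenin is broken down and TCF/LEF proteins recruit TLE corepressors, also known as Groucho proteins, so that the target genes are kept silent. With a signal, beta-catenin enters the nucleus, binds TCF/LEF proteins and turns the targets on. TCF7L1 acts mainly as a repressor, LEF1 and TCF7 more often as activators, and TCF7L2 is the main partner of beta-catenin in the crypts of the adult intestine. *Aes*, also named *Tle5*, encodes a short member of the TLE family without the WD40 repeats of the others.

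The sequences below show what was removed in the mutants and how far the remaining factors resemble TCF7L1. Exon 6 of the 13-exon transcript of *Tcf7l1* lies at chr6:72584094-72584226 of mm9 on the minus strand. Its 133 bases leave a remainder of 1 when divided by 3, and 187 whole codons of 599 precede it. The coding bases after it, in which the frame is shifted when it is missing, make up 61.4% of the coding sequence.
*Tcf7l1* exon 6: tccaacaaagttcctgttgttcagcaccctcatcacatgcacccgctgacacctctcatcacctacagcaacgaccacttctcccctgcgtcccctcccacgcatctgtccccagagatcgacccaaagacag

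The HMG box is encoded downstream of that exon. The 84 coding bases of *Tcf7l1* that have the closest counterparts in the other TCF/LEF genes lie in exon 10, at chr6:72581233-72581316, within the HMG box. They are shown beside the matching bases of *Tcf7l2* (chr19:55993427-55993510), *Tcf7* (chr11:52070475-52070558) and *Lef1* (chr3:130897598-130897681), all in mm9 and on the coding strand, with capitals at the bases that differ from *Tcf7l1*. The window has the length of 1 read of the study, so it shows the coding stretch in which reads of these genes are most alike.
*Tcf7l1*: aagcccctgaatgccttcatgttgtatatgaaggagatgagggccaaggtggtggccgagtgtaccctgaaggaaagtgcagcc
*Tcf7l2*: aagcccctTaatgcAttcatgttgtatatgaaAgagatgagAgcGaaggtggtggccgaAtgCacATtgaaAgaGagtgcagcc
*Tcf7*: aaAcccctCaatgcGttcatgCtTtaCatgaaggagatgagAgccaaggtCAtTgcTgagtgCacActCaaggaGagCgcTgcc
*Lef1*: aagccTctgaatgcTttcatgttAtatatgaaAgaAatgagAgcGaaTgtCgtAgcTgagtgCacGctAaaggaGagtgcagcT
In this window *Tcf7l2* shared 86.9% of the bases with *Tcf7l1*, *Lef1* 81.0% and *Tcf7* 79.8%. Across whole protein-coding transcripts the longest exact stretch between any pair of TCF/LEF genes was 24 bases. Of the 45 pairs among the 10 genes, 0 shared a stretch of 84 bases, and the longest was 68 bases, between *Tle1* and *Tle4*. The authors counted uniquely mapping reads, and strand was not stated to be used. Exons of *Gm15401* on the opposite strand overlap 5.39% of the exon bases of *Tcf7l1*, those of *Ulk4* 4.71% of *Ctnnb1*, those of *Gm11250* 2.84% of *Tle1* and those of *Gm15917* 1.58% of *Tle2*, and reads there cannot be assigned to a strand.

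The libraries held between 18216537 and 20397278 counts. Wild type 3 stood apart from its group: the chi-square per gene between its counts and those of wild type 1 and 2 was 16.0 and 17.9, against 8.57 between these, and it was 27.9 to 32.3 from the mutants, where wild type 1 and 2 were 39.0 to 54.2 from them. Without it 1 member was called lower and 0 higher, as with it, and the estimates of the 9 tested members kept their directions. All 9 epithelial markers were tested, and their summed level was 7651 to 8019 CPM (counts scaled to a common library total) in wild type, against 7003 to 7236 CPM in the mutants, with *Krt18*, *Cldn6*, *Cdx2* and *Cdh1* called lower in the mutants. *Epcam*, the gene of the protein used for the sort, and *Elf3* of the same list had log2 fold changes of 0.25 and 0.18 (edgeR adjusted p = 0.013 and 0.047, not called). Of 10 mesenchymal markers 4 were tested, and the list summed to 68.0 to 82.2 CPM in wild type, against 53.5 to 75.7 CPM in the mutants, mostly from *Vim*. The members of this list did not move together. *Pdgfra* had 6 to 23 counts in wild type, against 0 to 1 counts in the mutants, while *Acta2*, a smooth muscle actin gene, had 74 to 113 counts in wild type, against 92 to 442 counts in the mutants (log2 fold change 1.52, edgeR adjusted p = 0.014, not called). Without *Vim* and *Acta2* the other 8 summed to 228, 117 and 55 raw counts in wild type, and 35, 48 and 24 in the mutants. Of 9 blood markers 6 had 0 counts in every library, among them *Ptprc* and *Cd3e*, and the list summed to at most 1.77 CPM. Of 5 endothelial markers 4, among them *Cdh5* and *Kdr*, were at 0 throughout, and the 5 neural crest markers summed to 8.28 to 11.9 CPM over both groups. *Xist* had 0 counts in all wild type and 229 to 424 counts in mutant libraries, while the Y-linked *Kdm5d*, *Uty*, *Eif2s3y* and *Ddx3y* were at 0 in every mutant library. Sex-linked expression and genotype therefore coincide in these libraries, and their effects cannot be told apart. *Shh* itself was lower in the mutants (log2 fold change -1.28, edgeR adjusted p = 6.1e-05), and so was *Pdx1*, a gene of the anterior intestine (-2.09, adjusted p = 1.8e-05). The 5 anterior markers summed to 186 to 229 CPM in wild type, against 149 to 159 CPM in the mutants, and the 9 posterior markers to 145 to 164 CPM, against 101 to 113 CPM. The part that these differences have in the results below was not tested.

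In wild type epithelium the 10 genes covered a wide range of levels. Levels of different genes are compared as RPKM, which are CPM divided by the length of the longest annotated transcript in kilobases, with the mean ± SD of 3 libraries. *Aes* was highest, at 554, 571 and 590 RPKM in wild type libraries 1 to 3, above 99.4% of tested genes. *Ctnnb1*, which encodes beta-catenin, followed at 158, 175 and 146 RPKM, above 95.3% of tested genes. Each of these was higher in every library than any TCF/LEF gene.

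Among the TCF/LEF genes *Tcf7l2* was highest, at 14.5, 17.1 and 13.4 RPKM in the 3 wild type libraries. *Tcf7l1* reached 8.02, 7.98 and 6.13 RPKM, and *Tcf7* 6.13, 5.42 and 5.79 RPKM. The per-library ratio of *Tcf7l2* to *Tcf7l1* was 2.05 ± 0.208, and that of *Tcf7l1* to *Tcf7* was 1.28 ± 0.208 (SD, n = 3). With the union of all exons as length, wild type means were 7.39 RPKM for *Tcf7l2*, 6.75 for *Tcf7l1* and 5.26 for *Tcf7*. The size of the lead of *Tcf7l2* over *Tcf7l1* thus depends on the length used. At E13.5 the study saw a *lacZ* reporter of *Tcf7l1* in the anterior epithelium of the small intestine, but not in the posterior part. The cells were sorted from small intestines with no stated division into regions. The level of *Tcf7l1* and its ratios are therefore averages over the sorted cells, and levels by region were not tested. *Lef1* had 0 counts in all wild type libraries, among 60094593 counts in total. With a floor of 3 counts over the group, which covers counting error only, *Tcf7l2* was at least 1141-fold, *Tcf7l1* at least 560-fold and *Tcf7* at least 439-fold higher than *Lef1*. The exact 95% Poisson interval for 0 counts reaches 3.69 counts, above this floor, and at that limit the folds would be smaller. The mutant libraries held 3 reads of *Lef1*, all in mutant 2, with an exact 95% Poisson interval of 0.619 to 8.77 counts. *Lef1* was removed by the low-count filter and was not tested, so that 9 of the 10 genes have a test between groups.

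Of the full-length TLE genes, *Tle4* was highest at 11.9 ± 0.846 RPKM in wild type, followed by *Tle1* at 6.18 ± 0.0385, *Tle3* at 1.53 ± 0.0907 and *Tle2* at 0.761 ± 0.0534. These 4 genes did not overlap in their wild type values. *Aes* was 48.1 ± 4.78 times as high as *Tle4* per library, and 755 ± 77.1 times as high as *Tle2*. The *Tle2* gene is the neighbour of *Aes* on chromosome 10, with 8198 bases between them on mm9 (*Aes* at 81022239 to 81029107, *Tle2* at 81037306 to 81053590). *Tle6*, a further relative, lies 58 bases beyond the other end of *Tle2*, on the opposite strand, and its level per kilobase was 6.72 ± 1.47 times that of *Tle2*. The 3 neighbouring genes of the family thus differed in level far beyond the spread between libraries.

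In the full order of wild type means, *Aes* was followed by *Ctnnb1*, *Tcf7l2*, *Tle4*, *Tcf7l1*, *Tle1*, *Tcf7*, *Tle3*, *Tle2* and *Lef1*. The ranges of neighbours overlapped only for *Tcf7l1* and *Tle1*, which therefore did not differ beyond their spread. *Tle1*, at 6.13 to 6.20 RPKM, and *Tcf7*, at 5.42 to 6.13 RPKM, were barely separate. The lowest value of *Tcf7l1* also met the highest of *Tcf7*, so that their ranges overlapped slightly. Within each wild type library *Tcf7l1* was the higher of them, at a ratio of 1.06 to 1.47. The order depends on the length used: with the union of all exons in place of the longest transcript, 4 genes changed rank, *Tle4* exchanging places with *Tcf7l2* and *Tcf7* with *Tle1*. In mutant libraries *Tcf7l1* moved from rank 5 to rank 8 and *Tle1*, *Tcf7* and *Tle3* each came 1 rank higher. These are ranks of means. The mutant values of *Tcf7l1* overlapped those of *Tle3* and *Tle2*, and those of *Tle1* overlapped those of *Tcf7*.

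**Figure D1:**
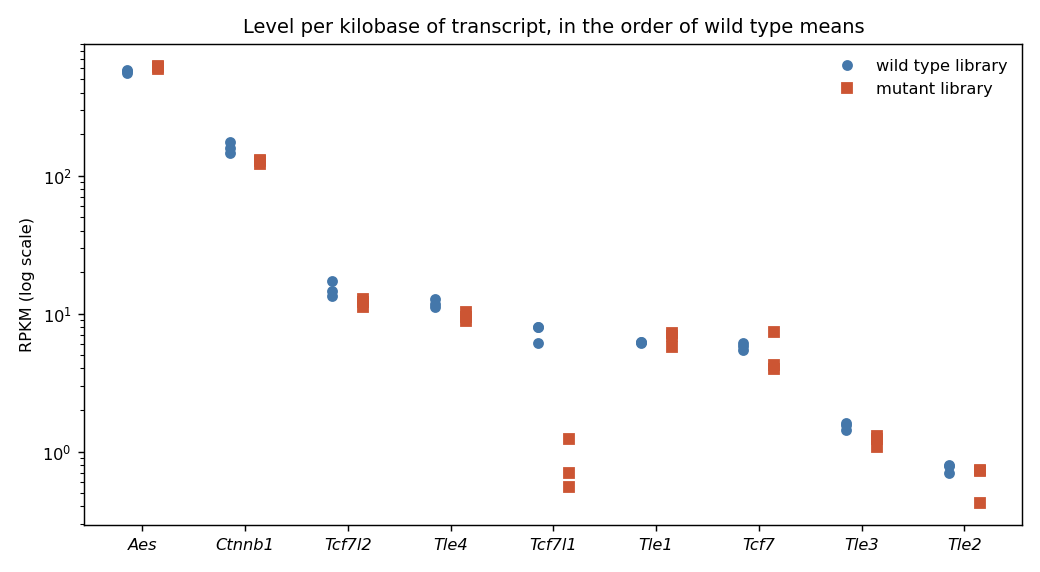
RPKM on a log axis for the 9 genes with counts in wild type libraries, in the order of their wild type means, with a circle for each wild type and a square for each mutant library. *Aes* lies at 554 to 590 RPKM in wild type, and the one wide gap between the groups is that of *Tcf7l1*. *Lef1*, with 0 counts in wild type, is not drawn.

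*Tcf7l1* was the one gene of the family that the comparison called. Its normalized counts, scaled by edgeR's TMM factors, were 476, 473 and 363 in wild type libraries 1 to 3, and 41.4, 33.0 and 72.9 in mutant libraries 1 to 3. Every mutant library lay far below every wild type library, and mutant 3 was the highest of the mutants. The log2 fold change was -3.16 (SE 0.26), with an adjusted p of 4.2e-07 by the quasi-likelihood test of edgeR, adjusted after Benjamini and Hochberg over 12501 genes, and only 0.576% of tested genes had a lower one. To be called, a gene needed an adjusted p below 0.01, a log2 fold change of 0.5 or more in either direction and a mean of 50 or more normalized counts. These counts cover the whole gene, so that reads from transcripts without exon 6 are counted with the rest. The study describes such transcripts as subject to nonsense-mediated decay, which was not tested here. In sorted bulk samples a lower level may mean less RNA per cell or fewer cells with the transcript, which cannot be told apart. Of all tested genes 5.83% were called lower and 2.78% higher, and of the 9 tested members 1 was called lower and 0 higher. The targeted gene is itself that 1 gene, so that the count of the other 8 is 0 in each direction. At an unadjusted p under 0.05, 4 members were lower and 0 higher, against 21.6% and 18.6% of all tested genes. DESeq2 also called 1 lower and 0 higher, against 5.98% and 3.11% of the genes it tested.

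*Ctnnb1* came next by its p-value. It had 11158, 12342 and 10331 normalized counts in wild type libraries 1 to 3, and 9005, 8644 and 9233 in mutant libraries 1 to 3. All mutant values lay below all wild type values. The estimate fell by 20.5% in the mutants, with a 95% confidence interval from 11.5% to 28.7% lower (log2 fold change -0.33, SE 0.07, edgeR adjusted p = 0.0036). By adjusted p alone 2 members, *Tcf7l1* and *Ctnnb1*, passed 0.01 in the lower and 0 in the higher direction, against 7.61% and 7.32% of all tested genes. *Ctnnb1* did not pass the fold set for a call, and the interval of the log2 fold change, from -0.49 to -0.18, ended short of -0.5. The result was close to the p threshold in several settings: with the gene-length correction the adjusted p was 0.0108, and of the 6 fits that left out 1 library only that without wild type 3 stayed under 0.01.

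*Tcf7l2*, the TCF/LEF gene with the most counts, had 1216, 1435 and 1124 normalized counts in wild type and 1014, 937 and 1077 in mutant libraries 1, 2 and 3. The groups did not overlap, with mutant 3 and wild type 3 nearest to each other. Its log2 fold change was -0.32, with a 95% interval from -0.56 to -0.08 (edgeR adjusted p = 0.043), and it was not called. The interval holds no increase of *Tcf7l2* in the mutants, while with the gene-length correction it runs from -0.41 to 0.01. *Tcf7* had 303, 268 and 287 normalized counts in wild type and 362, 196 and 209.8 in mutant libraries. Mutant 1 was the highest and mutant 2 the lowest of all 6, and the SD of *Tcf7* was 92.1 in mutant and 17.6 in wild type libraries. The log2 fold change of -0.16 had a 95% interval from -0.62 to 0.30 (adjusted p = 0.62). It was -0.49 without mutant 1 and 0.00115 without mutant 2, and neither was called.

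The TLE genes gave a mixed picture. *Tle4* had 1142, 1042 and 995 normalized counts in wild type and 787, 919.7 and 837 in mutant libraries. Its groups did not overlap, and the log2 fold change was -0.32 with a 95% interval from -0.55 to -0.09 (edgeR adjusted p = 0.038, not called). With *Tcf7l1*, *Ctnnb1* and *Tcf7l2* it was among the 4 members with an adjusted p under 0.05 in the lower direction, against 15.1% of tested genes, while 0 members were so in the higher direction, against 13.6%. For *Tcf7l2* and *Tle4* this depended on the fit. Without single libraries the edgeR adjusted p ran from 0.016 to 0.22 for *Tcf7l2* and from 0.025 to 0.16 for *Tle4*. With RLE normalization it was 0.053 and 0.051. *Tle3* had 264, 270 and 241 normalized counts in wild type and 217, 183 and 207 in mutant libraries, again without overlap. Its log2 fold change was -0.35 with an interval from -0.73 to 0.02 (adjusted p = 0.15). *Tle1* had 540.2, 534 and 539.9 in wild type and 634, 599 and 501 in mutant libraries, where the mutant values enclosed the wild type values. Its log2 fold change was 0.10 with an interval from -0.18 to 0.38 (adjusted p = 0.60).

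*Tle2*, the TLE gene with the fewest counts, had 72, 73 and 63 raw counts in wild type and 61, 34 and 56 in mutant libraries. The groups overlapped, and its log2 fold change of -0.28 had the widest interval of the tested members, from -1.03 to 0.47 (edgeR adjusted p = 0.60), which at this depth holds both no difference and a fall of 1 on the log2 scale. *Aes*, with more counts than any other member, had 15237, 15696 and 16214 normalized counts in wild type and 17241, 16924 and 16341 in mutant libraries. All mutant values were above all wild type values. Its log2 fold change was 0.10 with an interval from -0.03 to 0.23 (adjusted p = 0.25), and its direction turned with the gene-length correction (-0.07) and when libraries were scaled by their totals alone (-0.0061). With that scaling *Tle1* turned as well (-0.0029), and the median of all tested genes moved from -0.04 to -0.15.

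**Figure D2:**
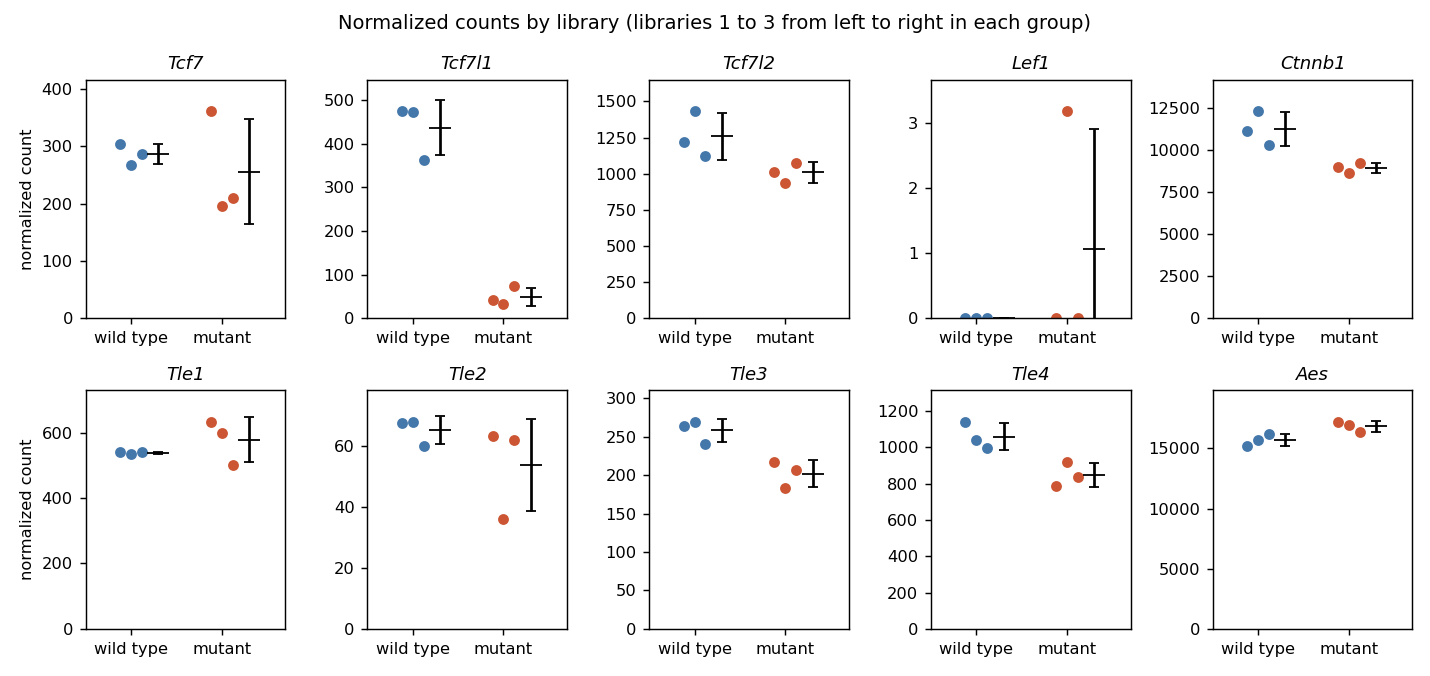
Normalized counts of the 10 genes, one panel a gene with a linear axis from 0, points for libraries 1 to 3 of each group and a bar with the mean ± SD. *Tcf7l1* falls from 363 to 476 counts in wild type to 33.0 to 72.9 in the mutants, *Ctnnb1*, *Tcf7l2*, *Tle3* and *Tle4* lie lower without overlap, and *Tcf7* has an SD of 92.1 in the mutants and 17.6 in wild type.

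Over the 9 tested genes 7 estimates were lower in the mutants and 2 higher, with a median log2 fold change of -0.32, against -0.04 for all tested genes. The groups did not overlap for 5 genes in the lower and 1 in the higher direction, where 22.2% and 20.8% of all tested genes, 43.0% together, did not overlap in these directions. The transcripts of these genes differ in length, from 1411 bases for *Aes* to 8638 for *Tle3*. With a correction that removes each library's trend on gene length, the median of the 9 genes was -0.20, and that of all tested genes -0.05. *Tcf7l1* kept its call under this correction (-3.11, edgeR adjusted p = 9.9e-06), and the 95% intervals of *Tcf7l2* and *Tle4* then held 0.

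**Figure D3:**
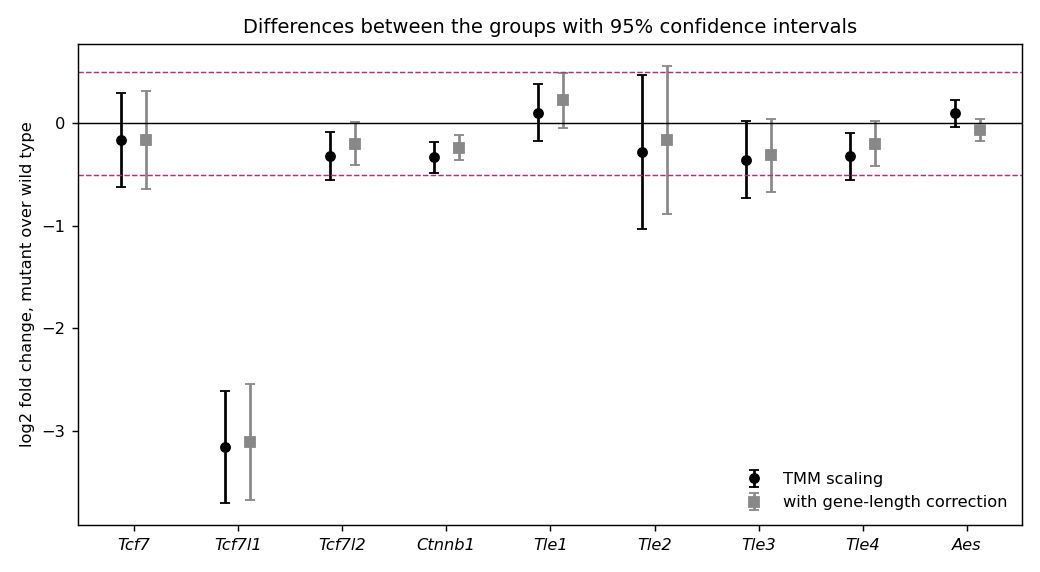
Log2 fold change of mutant over wild type with its 95% confidence interval for the 9 tested genes, as fitted with TMM scaling (circles) and with the gene-length correction (squares), with dashed lines at -0.5 and 0.5, the size needed for a call. *Tcf7l1* lies at -3.16, and the estimates of the other genes lie between -0.35 and 0.10 with TMM scaling.

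The make-up of the TCF/LEF transcripts was compared as the share of each gene in the summed reads per kilobase of *Tcf7*, *Tcf7l1*, *Tcf7l2* and *Lef1*, a ratio within a library that does not depend on its scaling. The shares do depend on the lengths used, here those of the longest transcripts. They are averages over the sorted cells of a library and do not give the make-up within a cell or a region. In wild type libraries 1 to 3 *Tcf7l1* made up 28.0%, 26.1% and 24.2% of this sum, and in mutant libraries 1 to 3 it was 3.47%, 3.53% and 6.71%. *Tcf7l2* held 50.7%, 56.1% and 53.0% in wild type and 60.2%, 71.1% and 70.2% in mutant libraries. For *Tcf7* the shares were 21.4%, 17.7% and 22.9% in wild type and 36.3%, 25.1% and 23.1% in mutant libraries. The difference of the *Tcf7* means was 7.54 percentage points, and 3.47 without mutant 1. None of the 3 genes overlapped between the groups, at an exact 2-sided permutation p of 0.1 each, the smallest that 3 libraries against 3 allow. Of all tested genes 43.0% did not overlap in their normalized counts. *Tcf7l1* is the targeted gene, so that these p-values add nothing to the fall of its own counts. The shares add up to 100%, so that those of *Tcf7l2* and *Tcf7* rise when *Tcf7l1* falls even if their own levels do not.

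Their own levels were therefore compared. The summed level of *Tcf7*, *Tcf7l2* and *Lef1* was 20.7, 22.6 and 19.2 RPKM in wild type and 19.4, 15.2 and 17.1 RPKM in mutant libraries. The groups overlapped, since mutant 1 lay above wild type 3, and the means were 20.8 ± 1.68 and 17.2 ± 2.12 RPKM (SD, n = 3, exact 2-sided permutation p = 0.2). With *Tcf7l1* added, the sum of the 4 genes was 28.2 ± 2.63 RPKM in wild type, against 18.1 ± 2.20 RPKM in the mutants, 64.1% of the wild type level, with no overlap. The ratio of *Tcf7l2* to *Tcf7* lay between 2.32 and 3.17 in wild type and between 1.66 and 3.03 in mutant libraries, and so overlapped. The ratio of *Ctnnb1* to *Tcf7l2* was 10.7 ± 0.401 in wild type, against 10.5 ± 0.388 in the mutants, a difference smaller than the spread between libraries.

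Within the TLE family *Aes* held 96.3% to 96.8% of the summed reads per kilobase in wild type, against 97.0% to 97.2% in the mutants. The remaining share was therefore examined among *Tle1* to *Tle4* alone. There *Tle4* held 60.1%, 57.9% and 57.4% in wild type libraries 1 to 3, and 48.8%, 55.3% and 55.0% in mutant libraries 1 to 3. *Tle1* held 28.9%, 30.3% and 31.7% in wild type and 40.04%, 36.7% and 33.6% in mutant libraries. *Tle3* held 7.32% to 7.91% in wild type, against 5.80% to 7.16% in the mutants. These 3 shares were separate between the groups (exact 2-sided permutation p = 0.1 each, the smallest possible), while those of *Tle2* overlapped. Of all tested genes 43.0% did not overlap in their normalized counts. These shares also add up to a fixed whole, so that of *Tle1* rises when *Tle4* and *Tle3* fall even if its own level does not. The normalized counts of *Tle1* itself overlapped between the groups (log2 fold change 0.10, edgeR adjusted p = 0.60). The choice to leave out *Aes* was made after its level was seen. The sum of *Tle1* to *Tle4* was 20.4 ± 0.95 RPKM in wild type, against 18.0 ± 0.813 RPKM in the mutants, without overlap (exact 2-sided permutation p = 0.1).

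**Figure D4:**
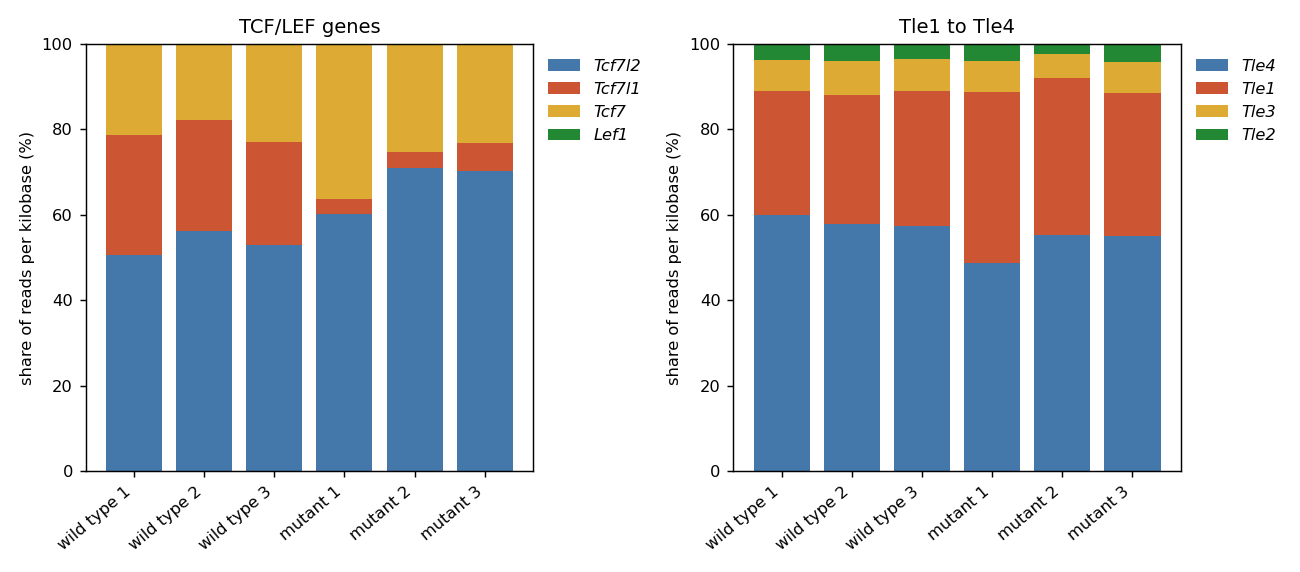
Share in percent of the summed reads per kilobase in each of the 6 libraries, on the left for the 4 TCF/LEF genes and on the right for *Tle1* to *Tle4*. *Tcf7l1* takes 24.2% to 28.0% in wild type, against 3.47% to 6.71% in the mutants, and *Tle4* takes 57.4% to 60.1% and 48.8% to 55.3%.

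By the rule fixed for naming genes of similar pattern, the 3 genes whose log2 CPM followed that of *Tcf7l1* most closely over the 6 libraries were *Chad*, *Ncoa5* and *Car2*, out of 10561 genes with a mean normalized count of at least 50. Pearson's r was 0.998, 0.997 and 0.997, which is given as a description only, because the libraries form a cluster for each group and share their normalization. *Chad*, which encodes the matrix protein chondroadherin, had 128, 114 and 95.8 normalized counts in wild type and 22.7, 17.0 and 30.9 in mutant libraries. *Ncoa5*, a nuclear receptor coactivator, had 1388, 1415 and 1199 in wild type and 647, 590.1 and 739.96 in mutant libraries. *Car2*, a carbonic anhydrase, had 423, 357 and 345 in wild type and 1.03, 0 and 5.52 in mutant libraries. In all 3 genes, as in *Tcf7l1*, wild type 3 was the lowest wild type library and mutant 3 the highest mutant library. The choice of these genes by correlation over the same libraries favours such a shared order.

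The other genes of the pathway were taken from 5 lists, with 65 genes in all, of which 61 were tested. Of these 3 were called lower, *Cdh1*, *Sox9* and *Tnfrsf19*, and 0 higher, where 5.83% and 2.78% of all tested genes were called, so that the count lower is near that background. DESeq2 called 4 lower, with *Ephb3*, named after its value was seen, added, and 0 higher, and at an unadjusted p under 0.05 in edgeR 18 were lower and 9 higher, against 21.6% and 18.6% of all tested genes. None of the 13 coactivators, all of which were tested, was called in either direction by edgeR or DESeq2, 2 were higher and 4 lower at an unadjusted p under 0.05 in edgeR, and their median log2 fold change was -0.32. Without the demand on fold, *Ruvbl1*, an ATPase that binds beta-catenin and the coactivator with the most counts, was higher, at 3629, 3439 and 3774 normalized counts in wild type and 4291, 4551 and 4614 in mutant libraries (difference on the log2 scale 0.31, edgeR adjusted p = 0.0047). With the gene-length correction *Ruvbl1* was at 0.19 (edgeR adjusted p = 0.025), and the median of the coactivators was -0.20. The lowest point of the plot of the lists is *Pygo1*, a binding partner of the BCL9 proteins named after its value was seen, with 33.7, 22.3 and 21.8 normalized counts in wild type, and 8.27, 5.32 and 3.31 in the mutants (log2 fold change -2.17, edgeR adjusted p = 0.022), which was not called.

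Of 12 corepressors and antagonists 0 were called by edgeR or DESeq2, with 3 higher and 1 lower at an unadjusted p under 0.05 in edgeR, and the median was -0.02. Over all tested genes 2.78% were called higher and 5.83% lower by edgeR, and 18.6% and 21.6% had an unadjusted p under 0.05. At these shares, 0 calls in a list this short is near the background, here and in the next list. *Hdac2*, the histone deacetylase gene with the most counts in this list, had a log2 fold change of 0.14 (95% interval from 0.00 to 0.29, edgeR adjusted p = 0.11). By adjusted p alone, *Ctbp1*, which encodes a corepressor that TCF proteins recruit, was lower (-0.38, adjusted p = 0.0037) and *Ruvbl2* higher (0.35, adjusted p = 0.0030). Both were named after their values were seen. Of the 15 tested genes of the destruction complex and Dishevelled, which control how much beta-catenin protein is left, 0 were called by either tool, with 1 higher and 5 lower at an unadjusted p under 0.05 in edgeR, and the median was -0.10. *Csnk1a1*, the kinase gene with the most counts there, had a log2 fold change of 0.03 (95% interval from -0.11 to 0.16), and *Fbxw11*, a ubiquitin ligase subunit named after its value was seen, had -0.46 (adjusted p = 0.0039) and fell short of the fold set for a call. With the gene-length correction *Fbxw11* was at -0.34 (edgeR adjusted p = 0.024).

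Beta-catenin also links E-cadherin to alpha-catenin at cell junctions, and 5 genes of this structure were examined. *Cdh1*, which encodes E-cadherin, fell from 4324, 4984 and 3665 normalized counts in wild type to 3131, 2574 and 3055 in mutant libraries (difference on the log2 scale -0.57, SE 0.10, edgeR adjusted p = 0.0010). With the gene-length correction its log2 fold change was -0.44 and it was not called. *Ctnna1*, the alpha-catenin gene, passed the adjusted p but not the fold (log2 fold change -0.45, edgeR adjusted p = 3.6e-04). The median of the 5 genes was -0.44, with 3 estimates lower and 2 higher, and *Ctnnd1* and *Vcl* were the 2 with higher estimates (0.07 and 0.34, neither called). These 3 genes were named after their values were seen, and *Cdh1* is also among the epithelial markers above.

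Of 19 genes listed as targets of WNT signalling in the intestine 16 were tested, and 2 were called lower and 0 higher, against 5.83% and 2.78% of all tested genes. *Sox9*, a transcription factor of intestinal progenitors, fell from 3055, 3745 and 2800.2 normalized counts in wild type to 1934, 1901 and 2021 in mutant libraries (difference on the log2 scale -0.71, SE 0.10, edgeR adjusted p = 8.4e-05). *Tnfrsf19*, a receptor gene also named *Troy*, fell from 192, 269.9 and 149 to 78.6, 80.8 and 97.2 normalized counts, by 1.25 on the log2 scale (SE 0.26, edgeR adjusted p = 0.0022). The call of *Cdh1* was lost without wild type 2 and without mutant 2, and that of *Tnfrsf19* without wild type 2, without mutant 1 and without mutant 2. The median of the targets was -0.25, and 12 of the 16 estimates lay below 0, as did 54.3% of those of all tested genes. The groups did not overlap for 4 targets in the lower and 2 in the higher direction, against 22.2% and 20.8% of all tested genes. The lower ones were the 2 called genes and, named after their values were seen, *Lgr5* and *Ephb3*. *Lgr5* had a log2 fold change of -0.52 and *Ephb3* of -1.27 (edgeR adjusted p = 0.020 and 0.013, neither called by edgeR). The 2 higher ones, also named after their values were seen, were *Sp5* and *Bambi*. The log2 fold changes of *Sp5* and *Bambi* were 1.12 and 0.27 (edgeR adjusted p = 0.095 and 0.088, neither called). *Axin2*, a target often used as a readout of WNT activity and named here for that use, had 26.5 ± 10.3 normalized counts in wild type, against 22.3 ± 5.25 in the mutants (difference on the log2 scale -0.25, 95% interval from -1.41 to 0.91), so that its counts were too few to tell a log2 change of -1 from none.

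**Figure D5:**
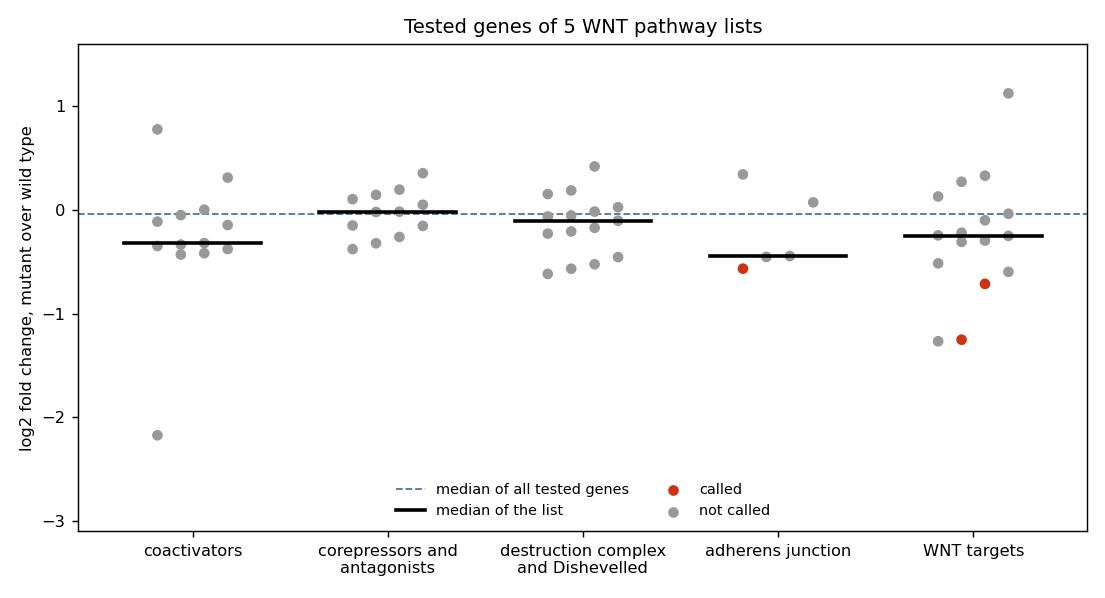
Log2 fold change of mutant over wild type for each tested gene of the 5 lists, with called genes in red, a black line at the median of each list and a dashed line at -0.04, the median of all tested genes. The 3 called genes are *Cdh1* among the junction genes and *Sox9* and *Tnfrsf19* among the WNT targets, all lower in the mutants.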

How the data were processed

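The authors made cDNA from polyA RNA with the SMARTer v4.0 kit over 15 PCR cycles, mapped reads of 84 bases to mm9 (STAR 2.5.2b) and, for each gene of a UCSC model, counted those with a unique position (featureCounts 1.5.1). The deposited values are these raw counts, 1 table to a library, without normalization by the authors. Whether strand was used is not given in the sources used here. Reads carry no molecular identifiers, so intervals and floors cover counting error only.

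Tests used R 4.3.3 and edgeR 4.0.16 (TMM normalization, filterByExpr, quasi-likelihood test on genotype over all 6 libraries, Benjamini-Hochberg adjustment over 12501 genes), after the thresholds of the study but with a mean normalized count of at least 50 in place of its RPKM. The edgeR and DESeq2 1.42.0 tests were tested on simulated data. Lengths, known for 95.0% of tested genes, and transcript sequences come from GENCODE vM1 of NCBIM37, which is mm9, and *Amer1* was found there under an older symbol. RPKM use the TMM-scaled libraries. Log2 CPM use a prior count of 2. Shares and sums were compared with exact 2-sided permutation tests.

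Named were all members, every called gene of the pathway lists, the gene with the most counts where a list had no call, and the 3 genes most like a called member, besides those said to be chosen after their values were seen. The members and lists were chosen with earlier results of these data known. Alternatives were DESeq2, RLE, library size only, other filters, other thresholds, a replicate block, a correction for the trend on gene length (loess, span 0.5), other lengths and each library left out in turn. No pair of libraries agreed within sampling noise (chi-square of 6.30 to 17.9 per gene within groups), so none was taken for a library deposited more than once.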

Additional observations from a re-analysis of the deposited data

How the results depend on the processing

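The call of *Tcf7l1* held with DESeq2, RLE normalization, library size only, both other filters, the gene-length correction, the replicate block and with each library left out, at log2 fold changes from -3.55 to -2.94 in the fits without 1 library. The number of members called lower, 1 with the reported settings, became 2 with no minimum fold (*Ctnnb1* added) and 0 at an RPKM of at least 50, which *Tcf7l1* does not reach, and stayed 1 without any single library. The number called higher was 0 throughout. Under no setting was another member called that kept the demand on fold. The sign of the estimate turned for *Tcf7* without mutant 2 (0.00115, where the fits without other single libraries went down to -0.495), for *Tle1* (-0.0029) and *Aes* (-0.00608) with library size only, and for *Aes* with the gene-length correction (-0.0669), none of them called.

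The 3 pathway genes called lower became 7 with library size only, 7 at an adjusted p under 0.05, 6 with no minimum fold, where 2 were higher, 1 with a log2 fold change of 1 or more in size and 0 at an RPKM of at least 50. With single libraries left out they ranged from 1 without mutant 2 to 7 without wild type 3, and the number called higher stayed 0. *Sox9* was the one gene called in all 6 of these fits.

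The share of *Tcf7l1* differed by -21.5 percentage points (mutant minus wild type), by -28.0 with exon union lengths and by -18.3 in raw counts, and without single libraries by -22.6 to -20.6. That of *Tcf7* differed by 7.54 points, by 13.3 with exon union lengths, by 4.68 in raw counts and by 3.47 to 10.1 without single libraries, the lowest without mutant 1. In raw counts the differences were 1.82 points for *Aes*, -1.44 for *Tle4*, -0.374 for *Tle3* and -0.0789 for *Tle2*. The order of wild type levels changed for 4 genes with exon union lengths.

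The replicate numbers are in the titles of both groups, but libraries with the same number did not deviate together (correlations of 0.0546, -0.115 and -0.0449 over 10562 genes). With the number as a block, 1 member and 3 pathway genes were called, and *Ctnnb1* had an adjusted p of 0.0113 (edgeR). Depth limits *Lef1*, *Tle2* and *Axin2*.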
